A study of Mus musculus with 3 samples.

Results

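Genes of 9 coagulation factors (F2, F3, F5, F7, F8, F10, F11, F12 and F13a1) were followed in multipotent blood progenitors of Mef2c-deficient and control mice. They were found by the gene name that the array's design gives to its probes, which picked 10 of the 41174 probes: 2 for F3 and 1 for each other gene, out of 27962 gene names on the array. The genes were selected on earlier results of the same mutant and control comparison, in which the log2 ratio of F10 was among the highest, so their ratios are given as a description and carry no test of their own.

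The mutant mice carried Mx1-Cre and floxed Mef2c alleles (Mx1-cre+ Mef2cfl/fl), and the controls carried the floxed alleles without Cre (Mef2cfl/fl), so an effect of Cre itself cannot be told apart from the loss of Mef2c. Mx1-Cre is driven by an interferon-responsive promoter and is active in many cell types of the animal. Mice of both genotypes were given 250 µg of poly(I:C), a synthetic RNA that evokes interferon, on each of 4 days. Bone marrow cells that carried c-kit and Sca-1 but not CD3, B220, Mac-1, Gr-1 or Ter119 were sorted 2 days after the last injection, 15000 per sample. The labels used here give no age and do not say whether the samples came from separate animals, so the spread between them may be technical. Each of 3 two-colour Agilent arrays held 1 mutant sample in Cy3 and 1 control sample in Cy5, which gives 6 libraries.

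Blood clotting is a chain of proteases and their cofactors. Tissue factor, the membrane receptor encoded by F3, binds factor VII, and the complex activates factor X. Active factor X, with factor V as cofactor, cuts prothrombin (F2) to thrombin, which makes fibrin, and factor XIII, whose A subunit is the product of F13a1, cross-links that fibrin. Factors XII, XI and VIII belong to the arm that starts at surfaces and amplifies thrombin formation. Most of these proteins reach plasma from the liver, but monocytes and macrophages are known to express F13a1, F7, F10 and, when stimulated, F3. Megakaryocytes hold factor V and factor XIII, and endothelial cells make factor VIII.

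The signs follow the labels, mutant over control, but the authors' deposited log2 ratios correlated with the scanner's Cy5 over Cy3 ratio at -0.947, 0.935 and -0.939 on arrays 1, 2 and 3, which means that array 2 has the opposite sign in their table. Whether array 2 was hybridised with swapped dyes is not known, and means with array 2 turned are given where they matter. With Cy3 in every mutant, a dye effect and the genotype cannot be told apart. Of Mef2c itself, one probe (NM_025282) gave ratios of 0.08, 0.10 and -0.96 and another (AK044643) gave 1.07, 0.22 and 0.28. The second of these probes was dim, and well above background only in mutants 1 and 2 and control 2. Neither probe checks the labels, because where the floxed stretch lies is not stated in the sources used here. Across probes, the log2 ratios of arrays 1 and 2 correlated at 0.286, those of 1 and 3 at 0.0977 and those of 2 and 3 at -0.0126, so the arrays shared little of their pattern. The share of probes well above background ranged from 73.4% to 80.4% over the 6 libraries. The progenitor genes Kit, Ly6a, Cd34, Ptprc and Flt3 were well above background in all 6 libraries, as were Itgam and Cd3e, genes of lineages that the sort was meant to remove.

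Of the 10 probes, 9 passed the filter on dim probes and 5 (F5, F7, F10, F12 and F13a1) were well above background in all 6 libraries. Over the whole table, limma called 0 of 32911 probes at an adjusted p under 0.05, while an unadjusted p under 0.05 was reached by 1622 probes higher and 1384 lower in the mutant. That is a background of 0% called, and of 4.93% higher and 4.21% lower without adjustment. The split moved with the scaling, to 801 higher and 2745 lower with median centring, which shifts the median of all probes to -0.15, and to 1032 and 1814 with the scanner's processed signals. None of the 9 member probes was therefore called, and the smallest adjusted p over the table was 0.543 by limma. Of these 9 probes, 4 (F5, F7, F10 and F13a1) lay higher in the mutant on all 3 arrays, against 16.0% of all probes, and 0 lay lower on all 3, against 18.0%. The mean ratio was above 0 for 7 of the 9, against 48.9% of all probes. The median ratio of the 9 was 0.26 and that of all probes -0.011. Because the contrast was used to choose the genes, nothing is read from these counts.

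**Figure D1:**
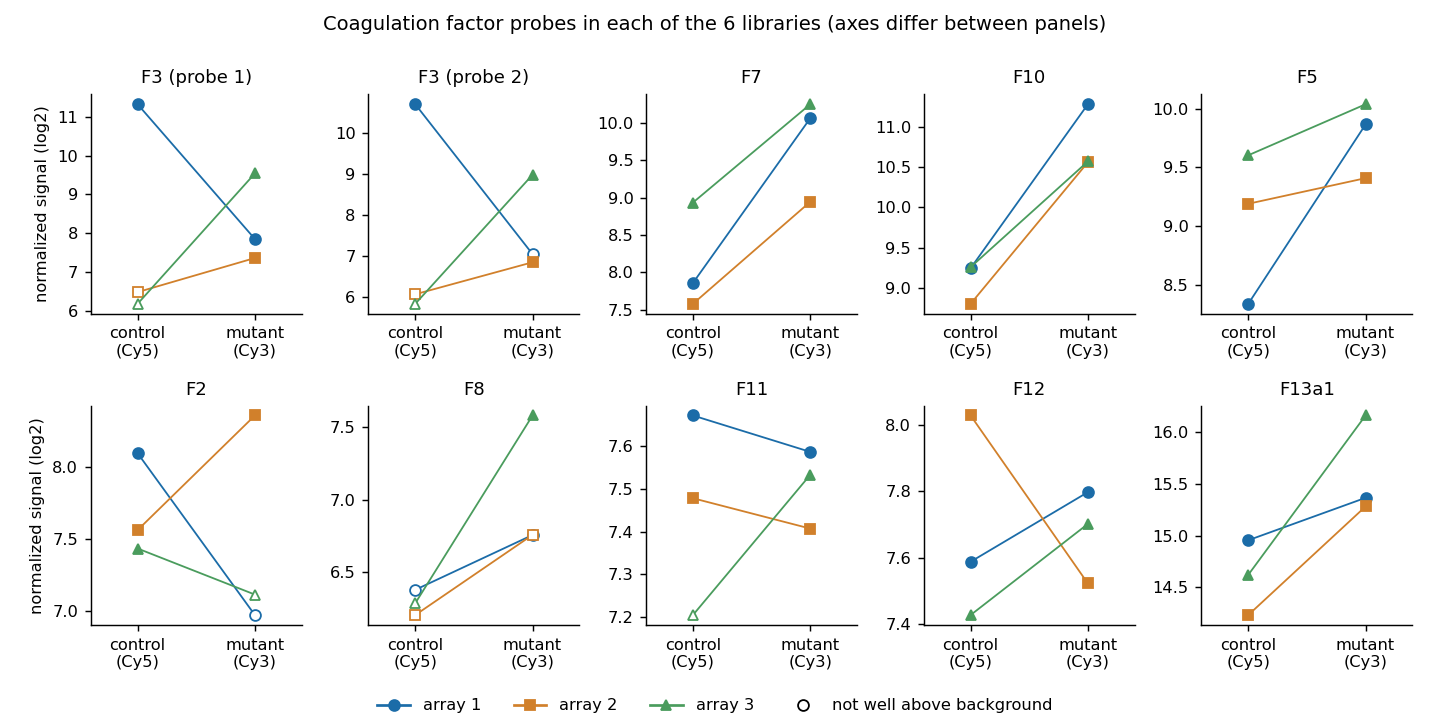
Normalized log2 signal of each coagulation factor probe in the control (Cy5) and mutant (Cy3) library of arrays 1, 2 and 3, joined by array; open symbols were not well above background. F7, F10 and F13a1 are the panels in which all 3 mutant points lie above all 3 control points among probes measured in every library, while F3 crosses over.

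F10 encodes the protease zymogen on which both arms of the cascade meet. Its spot had a mean Cy3 intensity of 1786, 981 and 1052 in mutants 1, 2 and 3, and a mean Cy5 intensity of 805, 641 and 908 in the controls, over local backgrounds between 32.0 and 53.0. After normalization the log2 signal was 11.29, 10.56 and 10.57 in the mutants and 9.24, 8.80 and 9.26 in the controls. The groups did not overlap, and the lowest mutant lay 1.31 above the highest control. Such separation upward was seen in 7.51% of all probes, and downward, which no tested member probe showed, in 9.92%. The log2 ratios were 2.04, 1.76 and 1.32, with a mean of 1.71 ± 0.37 (SD, n = 3). The mean stayed between 1.5 and 1.90 under other signals, scalings and filters and with any array left out, the authors' deposited ratios of array 2 being given the labelled sign there, and was 0.53 with array 2 turned.

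F7, whose product binds tissue factor, is the gene next to F10 on mouse chromosome 8. Its log2 signal was 10.06, 8.94 and 10.25 in mutants 1, 2 and 3 and 7.86, 7.58 and 8.93 in the controls. The groups touched without overlapping: mutant 2 was only 0.010 above control 3, while within each array the mutant was the higher library. The log2 ratios were 2.21, 1.37 and 1.32, a mean of 1.63 ± 0.50 (SD, n = 3), and the mean was 0.72 with array 2 turned.

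The bases just upstream of these neighbours, and of F3 whose signal sets array 1 apart from the others, are shown. Those of the other genes, F13a1 among them, were searched in the same way and are not printed. Each sequence is the 250 bases before the start site in RefSeq, read 5′ to 3′ on the gene's strand, and all 9 genes had such an entry. Capitals mark matches on either strand to one of 9 motifs: AP-1 (TGANTCA), the cyclic AMP response element (TGACGTCA), EGR (GCGNGGGCG), GATA (NGATAA), PU.1 (GAGGAAGT), C/EBP (TTGCNNAA), HNF4 (TGNNCTTTG), and the usual consensus of NF-kB and of MEF2.
F7, GRCm38.p6 chr8:13025784-13026033, + strand: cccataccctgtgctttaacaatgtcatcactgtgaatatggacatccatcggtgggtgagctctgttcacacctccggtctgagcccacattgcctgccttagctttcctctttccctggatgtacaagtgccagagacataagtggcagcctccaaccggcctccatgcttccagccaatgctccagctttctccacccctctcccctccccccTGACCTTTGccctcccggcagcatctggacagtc
F10, GRCm38.p6 chr8:13037058-13037307, + strand: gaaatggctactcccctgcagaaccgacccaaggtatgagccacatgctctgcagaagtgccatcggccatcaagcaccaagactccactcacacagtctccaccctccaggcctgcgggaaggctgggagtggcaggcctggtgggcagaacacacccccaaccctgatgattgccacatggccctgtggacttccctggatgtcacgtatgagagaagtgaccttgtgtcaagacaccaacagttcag
F3, GRCm38.p6 chr3:121723287-121723536, + strand: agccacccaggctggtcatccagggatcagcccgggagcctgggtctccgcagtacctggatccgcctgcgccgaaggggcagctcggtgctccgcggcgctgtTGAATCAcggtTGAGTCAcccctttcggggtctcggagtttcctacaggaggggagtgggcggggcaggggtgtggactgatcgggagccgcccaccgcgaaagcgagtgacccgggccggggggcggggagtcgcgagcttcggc
The F7 window held 1 HNF4 match, which starts 34 bases before the start site. HNF4 is a liver transcription factor, and 5.49% of 32851 promoter windows of this length had such a match. The F10 window matched none of these letters. The F3 window held 2 AP-1 matches that start 146 and 135 bases before the start site. AP-1 is the dimer of Fos and Jun proteins, and 6.75% of windows held at least 1 match and 0.338% held 2 or more. Among the windows not printed, that of F2 also held an AP-1 match. A GATA match lay upstream of F13a1, and the F11 window held a C/EBP and a GATA match. GATA matches were found in 22.5% of all windows and C/EBP matches in 9.56%. MEF2 matches were found in 2.92% of windows and in none of the 9 genes' windows. A match is a stretch of letters and not a measured binding site.

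The 3 genes on each side of F7 and F10 were looked at after their own values had been seen. Upstream of F7, the 2 probes of Atp11a, which encodes a membrane lipid transporter, had mean ratios of 1.18 and 0.53, and the 3 probes of Mcf2l, an exchange factor gene, had 0.20, 0.82 and 1.15. Downstream of F10, the 3 probes of Proz, the gene of the vitamin K-dependent protein Z, gave -1.13, 0.32 and 0.20, the Pcid2 probe gave 0.07, and the 3 probes of the ubiquitin ligase gene Cul4a gave 0.62, 0.22 and 0.30. Tubgcp3, the farthest gene upstream, gave -0.11. Mean ratios of the adjoining genes Mcf2l and Proz were below those of F7 and F10. The probes of Proz differed in sign, while all probes of Atp11a, Mcf2l and Cul4a had means above 0 as labelled and differed in size. With array 2 turned, not all of these means would stay above 0. The first Atp11a probe, for example, had ratios of 1.03, 1.83 and 0.68 on arrays 1, 2 and 3. Whether the genes of this stretch move together was not tested.

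F13a1 encodes the catalytic subunit of the fibrin-stabilizing transglutaminase. Its log2 signal was 15.37, 15.28 and 16.16 in mutants 1, 2 and 3 and 14.96, 14.23 and 14.62 in the controls. The lowest mutant lay 0.33 above the highest control, so the groups did not overlap, and the difference was smallest on array 1. Before normalization the mean Cy3 intensity was 35860, 23299 and 49630 in mutants 1, 2 and 3. The mean Cy5 intensity was 40392, 28929 and 37992 in the controls, above that of the mutant on arrays 1 and 2. The higher mutant signal on arrays 1 and 2 therefore rests on the scaling between the dyes. The log2 ratios were 0.41, 1.05 and 1.54, with a mean of 1.0 ± 0.57 (SD, n = 3), which was 0.73 without array 3, 1.30 without array 1 and 0.30 with array 2 turned.

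F7, F10 and F13a1 are also genes of monocytes and macrophages, and some markers of those cells also lay higher in the mutant as labelled. Of 12 such markers, 11 passed the filter. Of these, 5 lay higher in the mutant on all 3 arrays and 1 lower, against 16.0% and 18.0% of all probes. By limma 0 were called, and 4 on the higher side passed 0.05 without adjustment, against 4.93% of all probes. Turning array 2 changed this: 0 ran one way on all 3 arrays, 0 had an unadjusted p under 0.05 by limma, and the median ratio was 0.03 in place of 0.22. Adgre1, the F4/80 antigen gene, had ratios of 0.94, 1.23 and 0.84, the Fc receptor gene Fcgr1 had 1.25, 0.89 and 1.26, and Csf1r, the receptor of macrophage colony-stimulating factor, had 0.49, 0.40 and 0.33. Cd14, the monocyte lipopolysaccharide receptor gene, had -1.35, 0.11 and 0.74, and Mrc1, of tissue macrophages, was not well above background in any library. Itgam, which encodes the Mac-1 chain that myeloid cells share and on which the sort removed cells, had -1.28, -1.05 and -0.83. A gate against Mac-1 and Gr-1 is meant to remove mature myeloid cells. The summed linear signal of the 11 genes ranged from 57953 to 73766 in the mutants and from 33125 to 41364 in the controls. Without Ly6c1, left out after its values had been seen, the ranges overlapped, at 27630 to 40503 and 19722 to 29533, and with the libraries of array 2 exchanged they overlapped too. The part of such cells in the 3 genes' ratios was not tested. In sorted bulk samples, more cells of a type and more RNA per cell cannot be told apart.

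**Figure D2:**
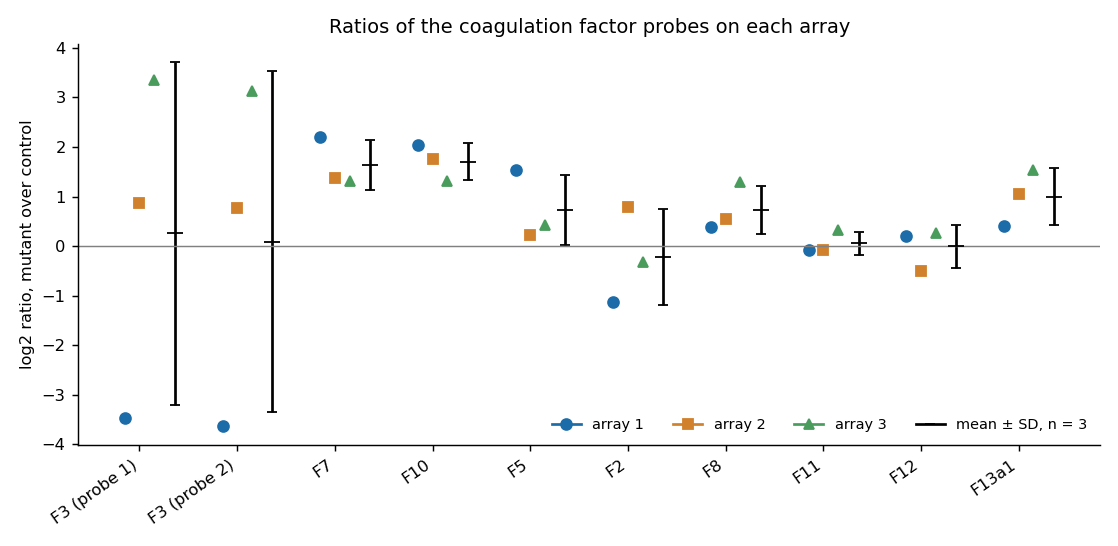
Log2 ratio of mutant over control for each coagulation factor probe on arrays 1, 2 and 3, with the mean and SD (n = 3) in black. F7, F10, F5, F8 and F13a1 lie above 0 on all 3 arrays, and both F3 probes run from about -3.5 on array 1 to above 3 on array 3. The F8 probe was well above background in mutant 3 alone and did not pass the filter.

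F3 showed the widest spread of the 9 genes, and its 2 probes agreed on it. The first probe had a log2 signal of 7.85, 7.36 and 9.54 in mutants 1, 2 and 3 and of 11.32, 6.49 and 6.18 in the controls. Control 1 was the highest of the 6 libraries, and controls 2 and 3 were not well above background. In scanner units control 1 had a mean Cy5 intensity of 3556, against 104.5 and 99.6 in the other controls over backgrounds of 52.5 and 57.5. Among the mutants, mutant 3 was the highest, with a mean Cy3 intensity of 523 against 139 and 107.7. For the second probe, mutant 1 and controls 2 and 3 were not well above background, so each array had a dim library there. The log2 ratios were -3.47, 0.88 and 3.36 for the first probe and -3.64, 0.78 and 3.13 for the second. Their means of 0.26 ± 3.46 and 0.09 ± 3.44 (SD, n = 3) were far smaller than the spread, and gave no direction. Without array 1 the means were 2.12 and 1.95, and without array 3 they were -1.30 and -1.43.

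F3 is known as an early response gene in stimulated cells, and control 1 also had the highest signal of such genes. The summed signal of 13 early response genes, a list added after control 1 had been seen to stand apart, was 662528 in control 1, 198192 and 155835 in the other controls, and between 74255 and 138468 in the mutants. Atf3, a stress-induced transcription factor gene, had ratios of -6.65, -0.27 and -0.95 on the 3 arrays, and Fos had -6.49, -0.64 and -0.0041. Neutrophil genes were high in the same library: the sum of 7 was 89895 in control 1, 11972 and 14980 in controls 2 and 3, and between 5553 and 12685 in the mutants. In mutant 3, the library with the second highest F3 signal, the early response sum was 122084 and the neutrophil sum 5553, so neither list was raised there as in control 1. The part of either list's cells or state in the F3 values was not tested.

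**Figure D3:**
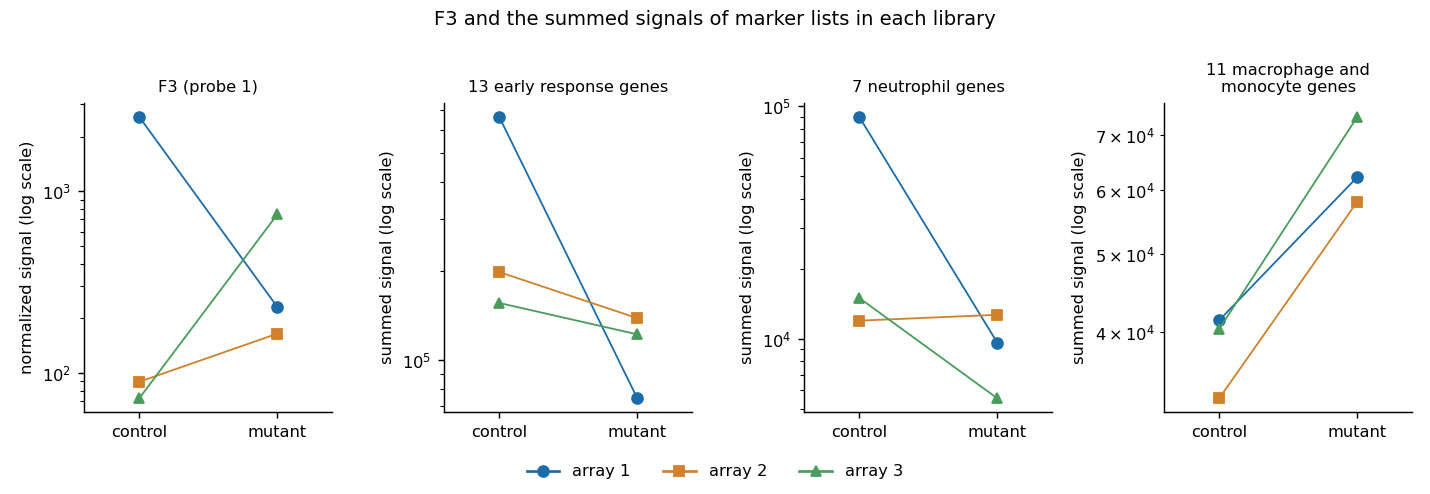
Signal of the first F3 probe and summed linear signals of 3 gene lists in the control and mutant library of each array, on log axes. Control 1 is highest for F3, early response and neutrophil genes, whereas the macrophage and monocyte sum lies higher in all 3 mutants (57953 to 73766) than in the controls (33125 to 41364), but not without Ly6c1 (27630 to 40503 against 19722 to 29533) or with array 2 exchanged.

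F5, the cofactor gene of factor X, was well above background in every library. Before normalization its mean intensity was 611, 428 and 719 in Cy3 (mutants) and 443, 852 and 1162 in Cy5 (controls). The mutant was the lower on arrays 2 and 3 before the dyes were scaled. After normalization the log2 signal of F5 was 9.87, 9.41 and 10.04 in mutants 1, 2 and 3 and 8.34, 9.19 and 9.60 in the controls. Mutant 2 fell within the range of the controls. The log2 ratios were 1.53, 0.22 and 0.43, with a mean of 0.73 ± 0.70 (SD, n = 3), and most of that mean came from array 1, without which it was 0.33. Markers of megakaryocytes and platelets were set beside F5 and F13a1. Of 10 such markers 9 passed the filter. On all 3 arrays 0 of them lay higher and 6 lower, against 16.0% and 18.0% of all probes. By limma 0 were called and 0 had an unadjusted p under 0.05 in either direction. With array 2 turned 0 lay lower on all 3, and the median ratio was -0.12 in place of -0.28. Their summed signal was 22693 to 29082 in the mutants and 27039 to 35304 in the controls. Itga2b, the platelet integrin gene, had ratios of -0.16, -0.25 and -0.56, and Gp1ba, of the receptor for von Willebrand factor, had -0.28, -0.50 and -0.59. Other markers of the list did not run one way on all 3 arrays. Pf4 had 0.82, -0.32 and -0.99, Gp9 had 0.87, -0.13 and -1.15, and Treml1 had -0.86, 0.13 and 0.14. The part of such cells in the F5 and F13a1 values was not tested.

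F2, the prothrombin gene, was dim. Its log2 signal was 6.97, 8.36 and 7.11 in mutants 1, 2 and 3, of which only mutant 2 was well above background, and 8.10, 7.56 and 7.43 in the controls. The groups overlapped, and the ratios of -1.13, 0.80 and -0.32 had a mean of -0.22 ± 0.97 (SD, n = 3).

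The genes of the surface-started arm gave no common direction. F12, the contact factor gene, had log2 signals of 7.80, 7.52 and 7.70 in the mutants and 7.59, 8.03 and 7.43 in the controls. Its mean ratio was -0.0073 ± 0.43 (SD, n = 3), and the groups overlapped. F11, the gene of the protease that factor XII activates, had 7.59, 7.41 and 7.53 in the mutants and 7.67, 7.48 and 7.20 in the controls, where control 3 was not well above background. Its mean ratio was 0.06 ± 0.24, the smallest SD of the 10 probes. F8, the cofactor gene of this arm, was well above background in mutant 3 alone, with log2 signals of 6.76, 6.76 and 7.58 in the mutants and 6.38, 6.21 and 6.29 in the controls. Its probe did not pass the filter and was not tested. Alb, the albumin gene and a defining marker of liver cells, was not well above background in any library, and neither was Kdr, an endothelial receptor gene, by both of its 2 probes. Other markers of both kinds were: 4 of 7 liver markers on the array, such as Apoa2 and Tat, and 6 of 8 of endothelium and stroma, such as Pecam1 and Tek, were well above background in all 6 libraries. Cdh5, also of the endothelium list, was so only in mutant 1 and controls 1 and 3. Which cells these signals came from was not tested. Of 8 liver markers 5 passed the filter, with summed signals of 2484 to 2674 in the mutants and 2249 to 3640 in the controls. Of 8 markers of endothelium and stroma 7 passed, with 10581 to 13663 in the mutants and 12799 to 13968 in the controls.

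Other genes of coagulation and fibrinolysis were taken from a list of 39, all on the array, of which 31 passed the filter. By limma 0 of them were called over all probes. Without adjustment 3 of the 31 passed 0.05 on the higher side and 2 on the lower, against 4.93% and 4.21% of all probes. With array 2 turned, 0 passed on either side. Over the 31 genes 5 ran higher on all 3 arrays and 5 lower, where all probes gave 16.0% and 18.0%, and the median of their mean ratios was 0.028. With array 2 turned 6 ran higher and 2 lower. Among 9 measured genes of fibrinolysis, the removal of clots, 4 lay higher on all 3 arrays and 0 lower, or 2 and 1 with array 2 turned. Among 16 plasma factors, inhibitors and their partners 1 lay higher and 4 lower, or 2 and 1 with array 2 turned. Among 3 thrombin receptors 0 lay higher and 1 lower, or 0 and 0 with array 2 turned. The vitamin K cycle equips factors II, VII and X to bind membranes. Among its 3 measured genes 0 lay higher and 0 lower, or 2 and 0 with array 2 turned. The median ratio of these 3 was 0.07 as labelled and 0.44 with array 2 turned.

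Genes were named only if they ran one way on all 3 arrays and were well above background in all 6 libraries. Of the higher ones, Plau, Serpine2, Thbd and Anxa2 had the smallest p-values by limma. The brightest probe of Anxa2 had an unadjusted p of 0.083 by limma, and its other probe 0.017. Plau, the urokinase gene, had log2 ratios of 0.53, 3.04 and 2.0, and its second probe had 1.77, 1.57 and 0.72. That second probe was not well above background in control 1. The first probe's mean was 1.85 ± 1.26 (SD, n = 3), and with array 2 turned it was -0.17. Serpine2, the gene of the thrombin and urokinase inhibitor nexin-1, had 0.66, 1.02 and 0.75, and a mean of 0.81 that was 0.13 with array 2 turned. Thbd encodes thrombomodulin, which turns thrombin toward activating protein C, and had 0.16, 1.11 and 2.22, and a mean of 1.16 that was 0.42 with array 2 turned. Anxa2, whose product helps to assemble plasminogen activation at the cell surface, had 0.14, 0.62 and 0.71, a mean of 0.49 that was 0.08 with array 2 turned, and its second probe had 0.71, 0.75 and 0.66.

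The lower genes named by the same rule were Procr, Proz, F2rl2 and Proc. Of these, F2rl2 and Proc did not reach an unadjusted p under 0.05 by limma. Procr, the receptor of protein C and a marker of stem cells, had log2 ratios of -1.99, -2.19 and -0.53, a mean of -1.57 ± 0.91 (SD, n = 3) that was -0.11 with array 2 turned. Proc, the protein C gene, had -0.45, -0.20 and -0.28, and F2rl2, a thrombin receptor gene, had -0.54, -0.67 and -0.26. With array 2 turned their means were -0.18 and -0.04. Proz was named through its probe for AK005011, with -2.08, -0.78 and -0.54, a mean that was -0.66 without array 1 and -0.61 with array 2 turned, whereas the means of its 2 other probes were above 0. Each of these 8 genes was required to run one way on all 3 arrays, and none of them was called over all probes.

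**Figure D4:**
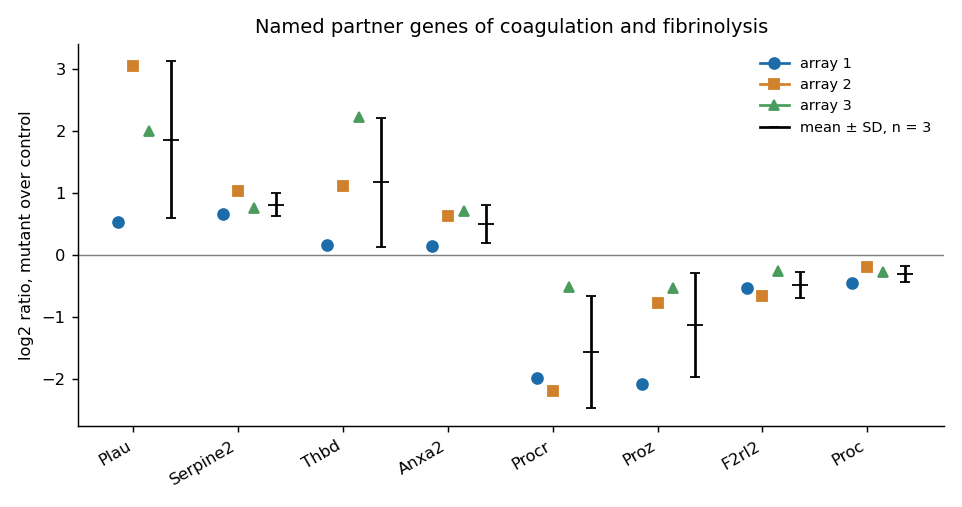
Log2 ratio of mutant over control on arrays 1, 2 and 3 for the 8 named partner genes, each by its brightest probe, with mean and SD (n = 3) in black. The 4 genes on the left lie above 0 and the 4 on the right below 0 on every array, which the rule that named them required.

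Of 28506 probes well above background throughout, those with clone names or names not in RefSeq were left out. Among the rest, the genes whose signals over the 6 libraries were most like a member's were found by Pearson's r. For F10 they were the glycolytic enzyme gene Pgam1 (r = 0.997), the splicing factor gene Hnrnpll (0.994) and Gatm, of creatine synthesis (0.994). For F7 they were Tmcc2 (0.996), Cacfd1 (0.992) and the glycolytic enzyme gene Pgk1 (0.992), and for F13a1 Pigw (0.993), Edem1 (0.992) and Sdhd (0.992). For F5 they were Zbtb8os (0.994), Rit1 (0.993) and Bmp2k (0.992), and for F12 the interferon-induced gene Ifit3 (0.991), Tlcd3a (0.985) and Nmnat1 (0.980). These are the highest of many values over only 6 libraries, which share arrays and dyes in pairs, so they describe likeness in these libraries only.

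**Figure D5:**
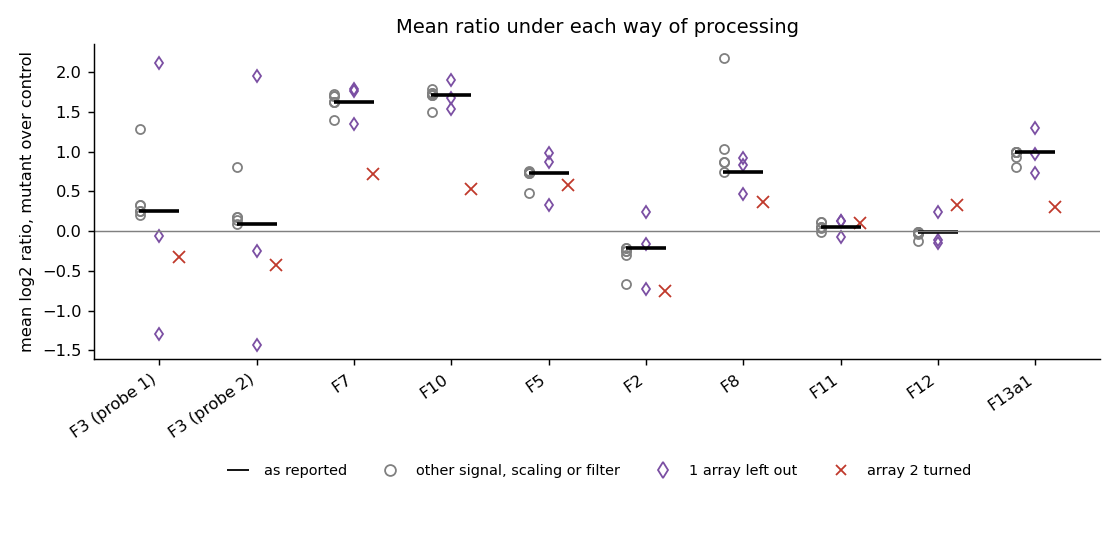
Mean log2 ratio of mutant over control for each probe as reported (black bars), under other signals, scalings or filters (grey circles), with 1 array left out (purple diamonds) and with array 2 turned (red crosses). F7, F10, F5, F8 and F13a1 stay above 0 throughout, with F10 between 0.53 and 1.90, while F3 runs from below -1.2 to above 1.9.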

How the data were processed

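Per the file headers, the authors read linear spot intensity values with Feature Extraction 9.5.1.1 (Agilent). These deposited files also give a log10 ratio, Cy5 over Cy3. A deposited table adds log2 ratios for which limma is named in the submitters' processing notes. Its non-empty lines were taken in the order of the spots, and its normalization and centring are not given in the sources used here. Per the labels' protocols, 250 ng of PCR-amplified cDNA was labelled per sample.

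Mean foreground and median background intensities were corrected by normexp (offset 50) and normalized by loess within arrays, with control spots at weight 0. Outlier spots were left out, 300, 331 and 252 on arrays 1, 2 and 3, none of them a member. Library signals were also normalized between arrays by Aquantile, which leaves ratios as they are. Probes were kept where 1 channel was well above background on 2 or more arrays. Ratios were tested against 0 by limma 3.58.1 in R 4.3.3 (lmFit, eBayes), adjusted by Benjamini-Hochberg over all kept probes at 0.05, and the fit was tested on simulated data. Levels of different probes were not compared. Partner and marker genes took symbols through RefSeq (GRCm38.p6) accessions, symbols or synonyms (22951, 6659 and 3109 probes; 8455 kept the file's name), and the brightest kept probe stood for each. Partner genes were named by a rule: up to 4 in each direction with the smallest unadjusted p that ran one way on all 3 arrays and were well above background in all 6 libraries. For each member well above background in all 6, the 3 genes of highest Pearson r were named, with clone names and names not in RefSeq left out. Members and lists were chosen with earlier results of these data known, and the early response list, the neighbours and the motifs after values had been seen. Alternatives were other signals, scalings and filters, array 2 turned, and each array left out. The number of arrays limits the precision. Some genes of the sorted lineages are not reported here.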

Additional observations from a re-analysis of the deposited data

How the results depend on the processing

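No setting tried gave a probe or partner gene at an adjusted p under 0.05 by limma. With array 2 turned, 1107 probes (470 higher and 637 lower) had an unadjusted p under 0.05 in place of 3006, and 1 of the 9 tested member probes, that of F12, lay higher on all 3 arrays in place of 4. With each array left out in turn the unadjusted count ran from 1613 (without array 1) to 3812 (without array 3). Member probes higher on every remaining array then numbered 4 to 6, under a looser condition than all 3 arrays. The matching share over all probes is not given for these settings or with array 2 turned, so nothing is read from these counts. Under the other signals, scalings and filters, the count of member probes higher on all 3 arrays stayed at 4, or 5 with no filter, when F8 enters. Of the 10 member probes, 3 changed the sign of their mean with array 2 turned, 1 with median centring, and 1, 3 and 3 without arrays 1, 2 and 3. With processed signals the mean of F8 was 2.18 in place of 0.74, those of the F3 probes 1.28 and 0.81 in place of 0.26 and 0.09, and that of F2 -0.66 in place of -0.22. The median of the partner genes was -0.13 with median centring, -0.083 with processed signals and -0.098 without array 3. Mutant and control were paired by array in every setting. Signal over background limits F2, F3, F8 and F11.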
